A study of Mus musculus with 13 samples.

Results

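BLIMP1 binding in the germ lineage was compared with BLIMP1 binding in somatic cells. The comparison used 12 of the 13 samples of the series, chosen by their labelled cell type: 6 germ-lineage libraries against 6 somatic libraries. BLIMP1 is a repressor of transcription with zinc fingers, and Prdm1 is its gene. It is required for the specification of primordial germ cells (PGC), the embryonic precursors of eggs and sperm, and it also acts in the maturation of antibody-secreting cells, in the fetal gut and in the choice of photoreceptor fate in the retina. It recognises DNA sequences with a GAAAG core and acts through partner proteins that modify chromatin.

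Every library came from C57BL/6 mouse cells that were homozygous for EGFP inserted at the amino terminus of BLIMP1, so no group lacked the tag, and all were immunoprecipitated with the same rabbit antibody to GFP. The germ lineage was represented by d2 and d6 PGC-like cells (PGCLC) with 2 replicates each and by E12.5 PGC with 1 male and 1 female library. PGCLC were made in culture: embryonic stem cell lines carrying the knock-in were turned into epiblast-like cells and then induced. The d2 PGCLC received LIF and BMP4 and were sorted for KIT. The d6 PGCLC received LIF, BMP4, BMP8a, SCF and EGF and were sorted for integrin beta-3 and SSEA1. For E12.5 PGC, SSEA1-positive cells were taken from gonads of embryos obtained by sperm injection. The somatic libraries, 2 replicates for each cell type, came from intestinal epithelium at E16.5 (GFP and EPCAM positive), photoreceptor precursors of the retina at postnatal day 4 (GFP positive) and plasmablasts, B cells cultured with IL-4 and LPS for 3 days (GFP and CD138 positive). Somatic cells were thus sorted by the tagged protein itself, whereas germ-lineage cells were sorted by surface markers. Between 300000 and 3000000 cells went into a library. Whether replicates were independent cultures or animals is not stated in the labels. Tests over cell types describe the spread between these 6 cell types, and tests over libraries the spread between these 12 libraries. The d2 and d6 PGCLC are 2 time points of 1 kind of culture, so the 3 germ-lineage cell types are not fully independent. Summit lists hold no expression values, so the labelled cell types could not be checked against marker genes.

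Each deposited list gave peak summits, 1 position per called peak, with no height or score. Germ-lineage libraries listed 12291 to 76185 summits and somatic libraries 7998 to 45122. The longest list, d6 PGCLC replicate 1, was made from 300000 cells and stood apart from the other germ-lineage lists, of which the next held 26657. The sources used here gave neither read depth nor calling threshold, and a missing summit may be one that was not called. As a check of the labels, the 6 library pairs of a cell type shared 55.2% to 70.4% of the shorter list within 200 bp. Pairs of different germ-lineage cell types shared 47.6% to 70.8%, pairs of different somatic cell types 23.2% to 42.2%, and pairs of a germ-lineage and a somatic library 18.8% to 48.8%.

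A smaller share of germ-lineage than of somatic summits lay close to a gene end. Within 1 kb of an end of a protein-coding gene lay 14.0% ± 0.432 of the summits in germ-lineage cell types and 26.6% ± 2.498 in somatic cell types (SD, n = 3 cell types each, the mean of 2 libraries standing for each). The share ran between 13.2% and 15.7% in the 6 germ-lineage libraries and between 23.4% and 29.8% in the 6 somatic libraries, so the lineages did not overlap. The longest list, of d6 PGCLC replicate 1, had 13.2%, and that of d6 PGCLC replicate 2, with 15411 summits, had 15.7%. The plasmablast lists, the longest somatic ones, had 28.9% and 28.0%, beside 25.2% and 29.8% in the shorter intestinal lists. How far list length shaped these shares was not tested. The difference was -12.5 percentage points (two-sided exact permutation test over 6 cell types, p = 0.1, adjusted p = 0.15 over 9 measures). With 3 cell types against 3, the exact permutation test cannot give a p below 0.1, so no measure here could pass 0.05.

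The share of summits 5 to 50 kb from the nearest gene end went the other way. It was 42.2% ± 0.839 in germ-lineage cell types and 35.0% ± 1.702 in somatic cell types (SD, n = 3 each; difference 7.17 percentage points, exact permutation p = 0.1). Library values ran between 40.8% and 43.4% in the germ lineage and between 33.3% and 36.9% in somatic cells, again without overlap. Summits inside a gene and over 5 kb from any gene end made up 34.6% ± 0.245 in germ-lineage and 29.9% ± 2.01 in somatic cell types (SD, n = 3 each; exact permutation p = 0.1), with no overlap of libraries. The median distance to a gene end, averaged over cell types, was 16979 bp in the germ lineage and 8456 bp in somatic cells. Its library range was 13857 to 20381 bp in the germ lineage and 5264 to 13053 bp in somatic cells (difference of log10 values 0.33, exact permutation p = 0.1). These 3 differences had an adjusted p of 0.15.

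Very distant summits did not separate the lineages. Summits over 50 kb from a gene end made up 28.1% ± 3.07 in germ-lineage and 20.5% ± 7.21 in somatic cell types (SD, n = 3 each; difference 7.56 percentage points, exact permutation p = 0.3, adjusted p = 0.338). The somatic spread was wide: plasmablasts had 13.9%, intestinal epithelium 19.5% and photoreceptor precursors 28.2%. Photoreceptor precursors lay inside the germ-lineage library range of 24.4% to 32.2%, although their share within 1 kb was somatic in size. Between 1 and 5 kb the lineages also overlapped, at 15.7% ± 1.83 in germ-lineage and 17.9% ± 3.12 in somatic cell types (SD, n = 3 each; exact permutation p = 0.4).

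**Figure D1:**
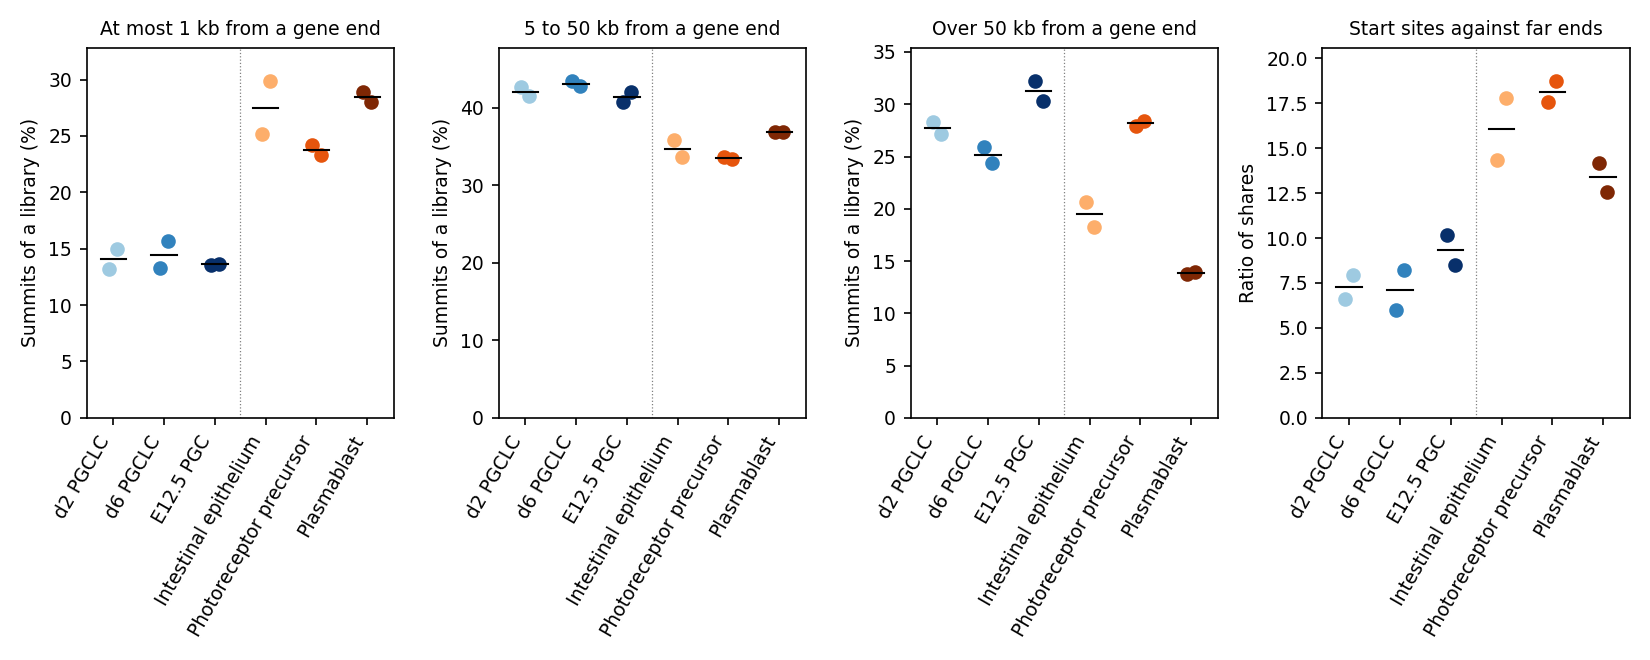
Points are single libraries and bars are means of the 2 libraries of a cell type, with germ-lineage cell types left of the dotted line and somatic ones right of it. The first 3 panels give the percentage of a library's summits in a distance class from the nearest end of a protein-coding gene; the last gives the share within 1 kb of a start site divided by the share within 1 kb of a far end only. In 3 panels the lineages do not overlap, while over 50 kb photoreceptor precursors (28.2%) lie among the germ-lineage cell types.

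Set against the genome, the difference was widest close to gene ends. Positions within 250 bp of a gene end make up 0.785% of the genome span covered. They held 4.90% to 6.37% of germ-lineage summits, 6.24 to 8.12 times the genome share, and 12.1% to 16.1% of somatic summits, 15.4 to 20.5 times. From 0.5 to 1 kb the enrichment was 2.98 to 3.95 times in germ-lineage and 4.21 to 6.18 times in somatic libraries. From 2 to 5 kb the ranges overlapped, at 1.33 to 1.68 times in germ-lineage and 1.24 to 1.85 times in somatic libraries. From 20 to 50 kb the order was reversed: germ-lineage libraries were at 1.03 to 1.07 times the genome share, and somatic libraries at 0.765 to 0.875 times.

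**Figure D2:**
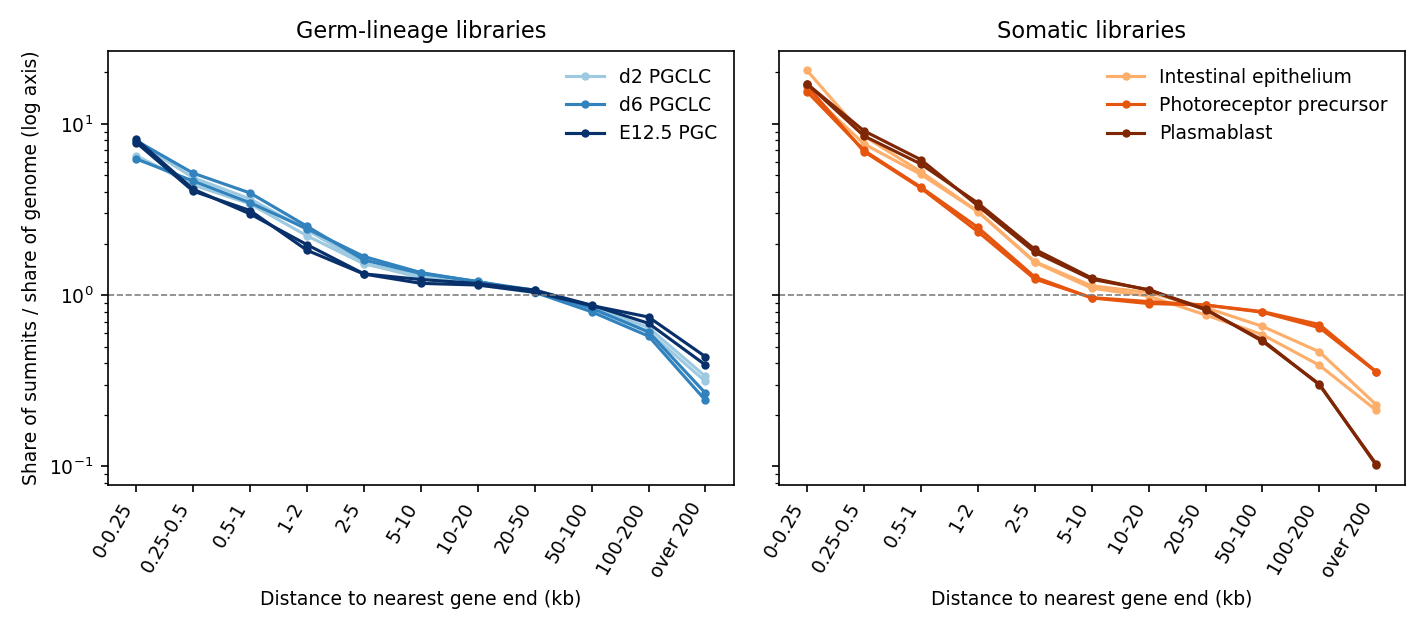
Each line is a library; the horizontal axis gives the distance to the nearest end of a protein-coding gene in kb and the vertical log axis the share of summits divided by the share of the genome at that distance, with the dashed line at equality. Within 0.25 kb the germ-lineage lines start at 6.24 to 8.12 and the somatic lines at 15.4 to 20.5, and between 20 and 50 kb the germ-lineage lines lie at 1.03 to 1.07 and the somatic lines at 0.765 to 0.875.

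Start sites, not the far ends of genes, carried the difference. Start sites were known for 17492 protein-coding genes. Of germ-lineage summits 11.8% lay within 1 kb of a start site, and of somatic summits 24.0% (means of 3 cell types). Within 1 kb of a far end only, the shares were 1.53% in germ-lineage and 1.55% in somatic cell types. The ratio of the 2 shares was 7.90 ± 1.24 in germ-lineage and 15.9 ± 2.39 in somatic cell types (SD, n = 3 each; exact permutation p = 0.1, adjusted p = 0.15), with libraries between 5.97 and 10.2 in the germ lineage and between 12.6 and 18.7 in somatic cells. CpG, the dinucleotide that is methylated in mammals, was counted in the promoters near summits. The median per promoter overlapped between lineages, at 21.0 to 22.0 in germ-lineage and 22.0 to 24.0 in somatic libraries. The share of promoters poor in CpG, a measure added after seeing the data, did not overlap. Among promoters with a summit within 1 kb, those with fewer than 10 CpG in the promoter window (250 bp before to 50 bp after the start) made up 14.6% ± 0.457 in germ-lineage and 10.5% ± 0.892 in somatic cell types (SD, n = 3 each; exact permutation p = 0.1, adjusted p = 0.15).

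Counted by gene, presence within 1 kb and presence 5 to 50 kb away pointed in opposite directions. A gene was scored by the number of libraries, out of 6 in each lineage, with a summit in the window around either of its ends. Within 1 kb, 2957 genes (13.5%) had a summit in more germ-lineage than somatic libraries and 8313 (38.0%) in more somatic libraries. In the window from 5 to 50 kb, 8474 genes (38.7%) had more germ-lineage and 5433 (24.8%) more somatic libraries. The direction within 1 kb rested on plasmablasts, whose libraries had a summit near 42.7% and 45.4% of genes: without them, by the share of libraries with a summit, 25.5% of genes were ahead in the germ lineage and 17.5% in the other somatic libraries. The same omission gave 48.8% and 19.04% in the window from 5 to 50 kb, and omission of d6 PGCLC replicate 1 gave 37.2% ahead in the germ lineage and 33.4% in somatic cells. A summit within 1 kb was found in all 6 germ-lineage libraries for 928 genes (4.24%), in all 6 somatic libraries for 830 (3.79%), in all 12 for 498 (2.28%) and in none for 8822 (40.3%). The same numbers at 5 to 50 kb were 6806 (31.1%), 4212 (19.2%), 3114 (14.2%) and 2911 (13.3%).

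No single gene passed a test across all genes. For each gene the presence of a summit was permuted over the 12 libraries (two-sided exact permutation test, Benjamini-Hochberg adjustment over all protein-coding genes). Within 1 kb, 0 genes (0.0%) had an adjusted p under 0.05 and the lowest adjusted p was 0.911; 218 genes (0.996%) had an unadjusted p under 0.05, 111 (0.507%) with more germ-lineage and 107 (0.489%) with more somatic libraries. From 5 to 50 kb, 0 genes (0.0%) passed, with a lowest adjusted p of 0.245, and 550 genes (2.51%) had an unadjusted p under 0.05, 489 (2.23%) with more germ-lineage and 61 (0.279%) with more somatic libraries. These are the genes with a difference of 5 or 6 libraries. Complete separation, 6 libraries against 0, gives the smallest p this exact permutation test allows, 0.00216. Even at that p the adjusted value was 0.911 within 1 kb and 0.245 at 5 to 50 kb. So the test could not call a single gene here. Paired libraries of a cell type are not independent, so these p-values are too small. The genes with the largest differences are therefore given as a description.

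Complete separation was more frequent in the germ direction, between groups that differ in how alike their cell types are. Libraries of different germ-lineage cell types shared 47.6% to 70.8% of the shorter list, and those of different somatic cell types 23.2% to 42.2%. How far this shaped the counts was not tested. Within 1 kb, 42 genes (0.192%) had a summit in all 6 germ-lineage libraries and no somatic library, and 10 genes (0.0457%) the reverse. In the distal window the numbers were 186 (0.85%) and 7 (0.032%). Among the 155003 regions formed by merging summits at most 200 bp apart, 1624 (1.05%) were found in all 6 germ-lineage libraries and no somatic library, called germ-only regions here, and 15 (0.00968%) the reverse, called somatic-only. List length bears on these counts. With every list thinned to 7998 summits, the length of the shortest, 1 gene was germ-only and 7 somatic-only within 1 kb, 63 and 23 at 5 to 50 kb, and 6 and 3 among regions. The higher germ-only number within 1 kb was not seen in the thinned lists. As the lists hold no scores, thinning kept evenly spaced summits and not the strongest. It drops most from the longest lists, so summits shared by all 6 libraries are lost by the procedure itself. It therefore cannot decide how far list length made the difference. Without d6 PGCLC replicate 1, somatic-only numbers were 40 genes within 1 kb, 46 genes at 5 to 50 kb and 45 regions.

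**Figure D3:**
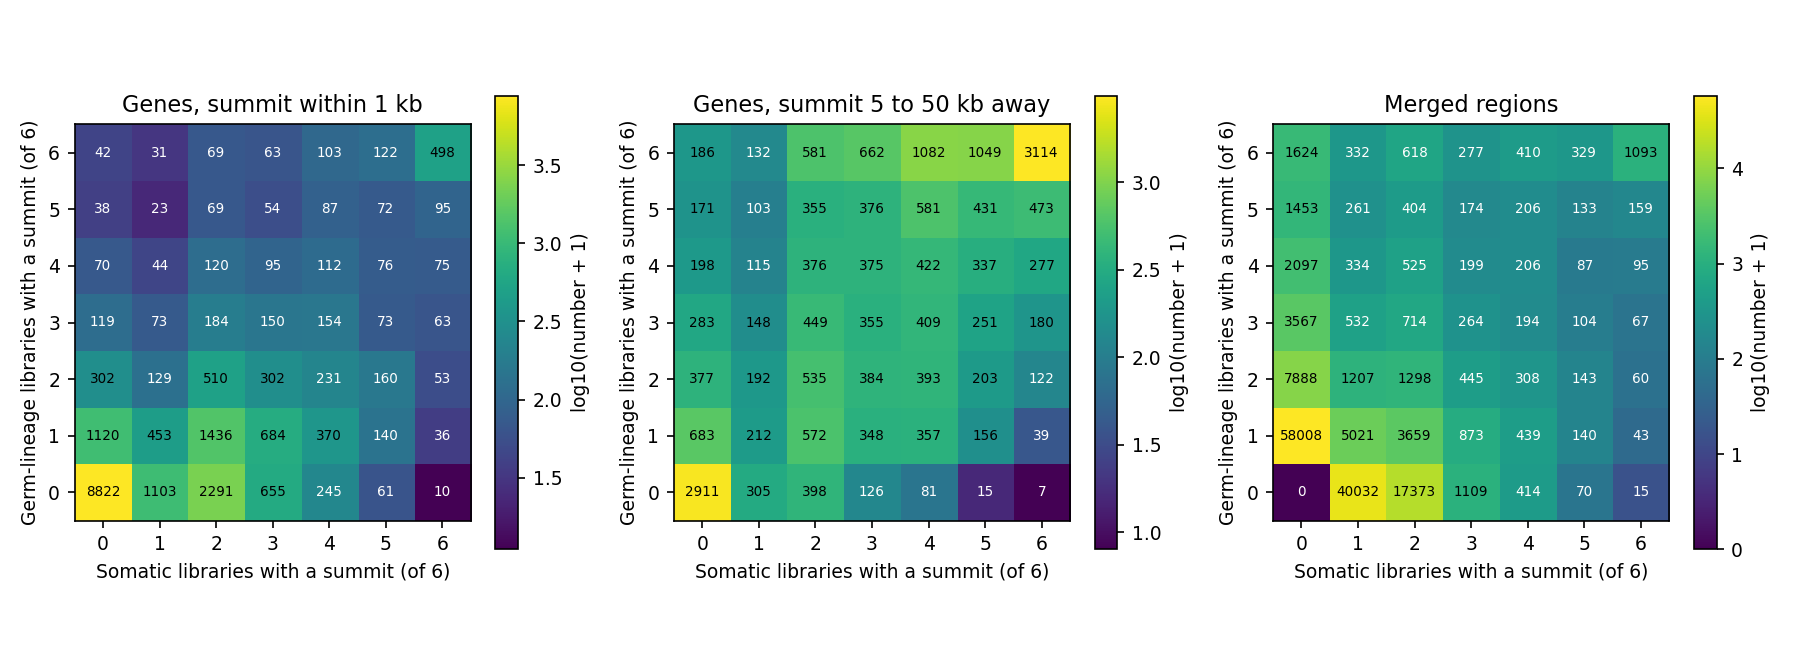
Each cell gives the number of genes or merged regions found in a given number of germ-lineage libraries (vertical axis, of 6) and somatic libraries (horizontal axis, of 6), with colour on a log10 scale. The top left corner holds features found in all germ-lineage and no somatic library (42, 186 and 1624) and the bottom right corner the reverse (10, 7 and 15).

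The 2 kinds of region lay in different places. Of the 1624 germ-only regions, 4.31% lay within 1 kb of a gene end, 48.6% at 5 to 50 kb and 35.6% beyond 50 kb, with a median distance of 27633 bp. Of the 15 somatic-only regions, 11 lay within 1 kb and none beyond 50 kb, with a median distance of 201 bp. For comparison, the 1093 regions found in all 12 libraries (0.705%) had 33.9% within 1 kb, 32.0% at 5 to 50 kb and 19.6% beyond 50 kb, with a median of 5941 bp. The asymmetry also appeared in what the other lineage lacked, with the same limit that somatic cell types shared fewer summits with each other. Of 4683 regions present in all 6 germ-lineage libraries, 34.7% were in no somatic library, and any one somatic library held between 36.1% and 52.0% of them. Of 1532 regions present in all 6 somatic libraries, 0.979% were in no germ-lineage library, and any one germ-lineage library held between 82.6% and 95.2%.

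Among the genes with germ-only summits within 1 kb, Timp4, which encodes an inhibitor of matrix metalloproteinases, had the tightest placement. Its nearest summits lay 67 to 90 bp (median 81.0) upstream of its start in the 6 germ-lineage libraries, inside 24 bp of chromosome 6 (115252272 to 115252295). In somatic libraries the nearest summit was 16854 to 51646 bp from the gene. Cyp2j9, a cytochrome P450 gene, had summits 64 to 128 bp upstream of an annotated start in germ-lineage libraries, which is 910 to 974 bp inside the outer end of the gene, against 14530 to 896814 bp from the gene in somatic libraries. For Mobp, a myelin protein gene of oligodendrocytes, the germ-lineage summits lay 123 to 229 bp upstream and the somatic ones at 9518 to 139865 bp. By the rule that chose these 3 genes, every germ-lineage library had a summit within 1 kb and no somatic library did. Their promoter windows are printed because the germ-only summits fall inside them, followed by those of Ddx42, an RNA helicase gene, and Heatr1, a gene of ribosome synthesis. The Ddx42 window holds the summits of all 6 somatic libraries and the Heatr1 window those of 4, the other 2 lying farther upstream.

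The windows run from 250 bp before to 50 bp after the start, read 5′ to 3′ on the gene's strand, with GAAAG and its reverse complement CTTTC in capitals (RefSeq, GRCm38.p6). They are Timp4 at chr6:115252156-115252455, minus strand, Cyp2j9 at chr4:96591436-96591735, minus strand, Mobp at chr9:120149492-120149791, plus strand, and for the somatic-only genes Ddx42 at chr11:106216676-106216975, plus strand and Heatr1 at chr13:12395125-12395424, plus strand.
Timp4: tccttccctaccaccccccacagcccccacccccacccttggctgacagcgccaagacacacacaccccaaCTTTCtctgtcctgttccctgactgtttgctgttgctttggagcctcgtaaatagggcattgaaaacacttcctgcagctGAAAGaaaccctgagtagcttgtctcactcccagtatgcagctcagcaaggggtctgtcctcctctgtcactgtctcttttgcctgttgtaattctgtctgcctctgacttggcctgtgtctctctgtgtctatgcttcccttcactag
Cyp2j9: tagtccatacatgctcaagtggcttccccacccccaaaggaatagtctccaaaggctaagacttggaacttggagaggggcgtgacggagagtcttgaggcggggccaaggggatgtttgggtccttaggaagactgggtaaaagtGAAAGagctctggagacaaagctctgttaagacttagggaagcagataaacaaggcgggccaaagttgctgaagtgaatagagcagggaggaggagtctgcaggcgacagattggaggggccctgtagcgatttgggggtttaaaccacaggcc
Mobp: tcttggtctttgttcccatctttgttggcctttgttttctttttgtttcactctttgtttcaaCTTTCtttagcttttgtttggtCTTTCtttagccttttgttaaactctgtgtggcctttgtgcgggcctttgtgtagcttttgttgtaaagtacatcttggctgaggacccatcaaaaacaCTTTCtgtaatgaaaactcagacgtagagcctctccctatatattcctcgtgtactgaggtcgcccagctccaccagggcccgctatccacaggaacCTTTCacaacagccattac
Ddx42: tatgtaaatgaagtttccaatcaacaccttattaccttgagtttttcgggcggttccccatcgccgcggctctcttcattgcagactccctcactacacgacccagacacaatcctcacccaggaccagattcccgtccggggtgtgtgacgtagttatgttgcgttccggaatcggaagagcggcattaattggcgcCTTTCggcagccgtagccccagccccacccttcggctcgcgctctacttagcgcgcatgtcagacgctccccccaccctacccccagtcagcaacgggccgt
Heatr1: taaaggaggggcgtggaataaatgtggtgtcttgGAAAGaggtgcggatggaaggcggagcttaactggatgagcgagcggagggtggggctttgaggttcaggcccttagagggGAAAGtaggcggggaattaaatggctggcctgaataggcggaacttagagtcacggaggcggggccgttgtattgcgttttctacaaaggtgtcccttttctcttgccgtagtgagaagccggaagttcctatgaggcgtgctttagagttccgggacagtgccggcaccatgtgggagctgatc

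The Timp4 window held a GAAAG whose first base was at -99 from the start, next to the summits, and a CTTTC at -179 that is part of the longer match AGNGAAAG (N, any base; read on the other strand). In Cyp2j9 a GAAAG began at -104, between the outermost summits, and also completed AGNGAAAG. Mobp held 4 CTTTC and no AGNGAAAG. Ddx42 held 1 CTTTC and Heatr1 2 GAAAG, neither with the longer match. The short match is common: counting both strands, 55.0% of all 21263 promoter windows held it, against 8.07% for the longer one, which contains it. Windows were also classed by the libraries with a summit within 1 kb of their own start site. These classes differ from the genes counted by either end. Of the 34 windows with summits in all germ-lineage and no somatic libraries, 70.6% held GAAAG and 14.7% AGNGAAAG. Of the 7 windows of the reverse class, 85.7% held GAAAG and none AGNGAAAG, and of 499 windows with summits in all 12 libraries 67.3% and 24.0%. Per library, AGNGAAAG occurred in 13.9% ± 1.69 of promoters with a summit in germ-lineage and 11.3% ± 2.83 in somatic cell types (SD, n = 3 each; exact permutation p = 0.3, adjusted p = 0.338), and the lineages overlapped.

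Other genes with germ-only summits at the start were Snurf and Sox2. Snurf, part of the imprinted Snrpn locus, had a summit 114 to 209 bp inside the gene from its start in the 6 germ-lineage libraries (median 156), against a nearest summit 580028 to 3339529 bp away in somatic libraries. Sox2, a transcription factor gene of pluripotent cells, had germ-lineage summits between 83 bp upstream and 189 bp downstream of its start. The nearest somatic summits lay at 9152 and 9163 bp in photoreceptor precursors, at 9327 and 849285 bp in intestinal epithelium, and at 567729 and 567723 bp in plasmablasts. Sox2 had a second germ-only region on chromosome 3 (34668357 to 34668623), beyond its far end. Dppa5a, a gene of pluripotent and germ cells, had a summit within 1 kb in 5 germ-lineage libraries, 6 to 102 bp from its end, and in no somatic library. The germ-lineage library without one was d6 PGCLC replicate 2, with its nearest summit at 175075 bp.

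Some germ-only summits near genes lay at the far end and not at the start. In Slit3, an axon guidance ligand gene, the summits lay 95 to 183 bp past the far end in germ-lineage libraries, against 17786 to 44679 bp from either end in somatic libraries. B3gnt4, a glycosyltransferase gene, had them 5 to 43 bp past its far end, against 6690 to 114013 bp in somatic libraries. Psrc1, which encodes a microtubule-binding protein, had them at 113 to 235 bp, against 1211 to 19888 bp, so its somatic distances began just outside the window. Tmod2, an actin-capping protein gene of neurons, had them at 433 to 560 bp, against 1804 to 52235 bp in somatic libraries. Grk3, Fam163b, Selenbp2 and Lhfpl2 were also among the 15 genes ranked highest, with germ-lineage summits between 85 and 777 bp from an end. Of the 42 genes, 38 held a germ-only region within 1 kb, 38 distinct regions in all, and the other 4 held none.

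Among the 10 somatic-only genes within 1 kb, some were neighbours that share regions. For Ddx42 the nearest summit lay 7063 to 81500 bp away in germ-lineage libraries, against 3 to 72 bp in somatic libraries. Heatr1 had its nearest germ-lineage summit 12794 to 251959 bp away and its somatic summits at 69 to 271 bp. For Faf1, a gene of FAS signalling, the values were 8801 to 165346 bp in germ-lineage and 43 to 343 bp in somatic libraries. Snrnp70, a component of the U1 splicing particle, had 10617 to 91378 bp in germ-lineage and 2 to 335 bp in somatic libraries. Cnot1, the scaffold of the main mRNA deadenylase complex, was less clear, since its nearest germ-lineage summit lay 1012 bp away, just outside the window, and its somatic summits at 436 to 707 bp. The other genes were neighbours that shared a region with these or with each other: Ccdc47 with Ddx42, Ttc9c with Hnrnpul2, and Atat1 with 2310061I04Rik, so 9 of the 10 genes held 6 distinct somatic-only regions. Further somatic-only regions within 1 kb lay by Rps27a, Mycbp2, Ticam1, Rad9b and Jkamp.

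**Figure D4:**
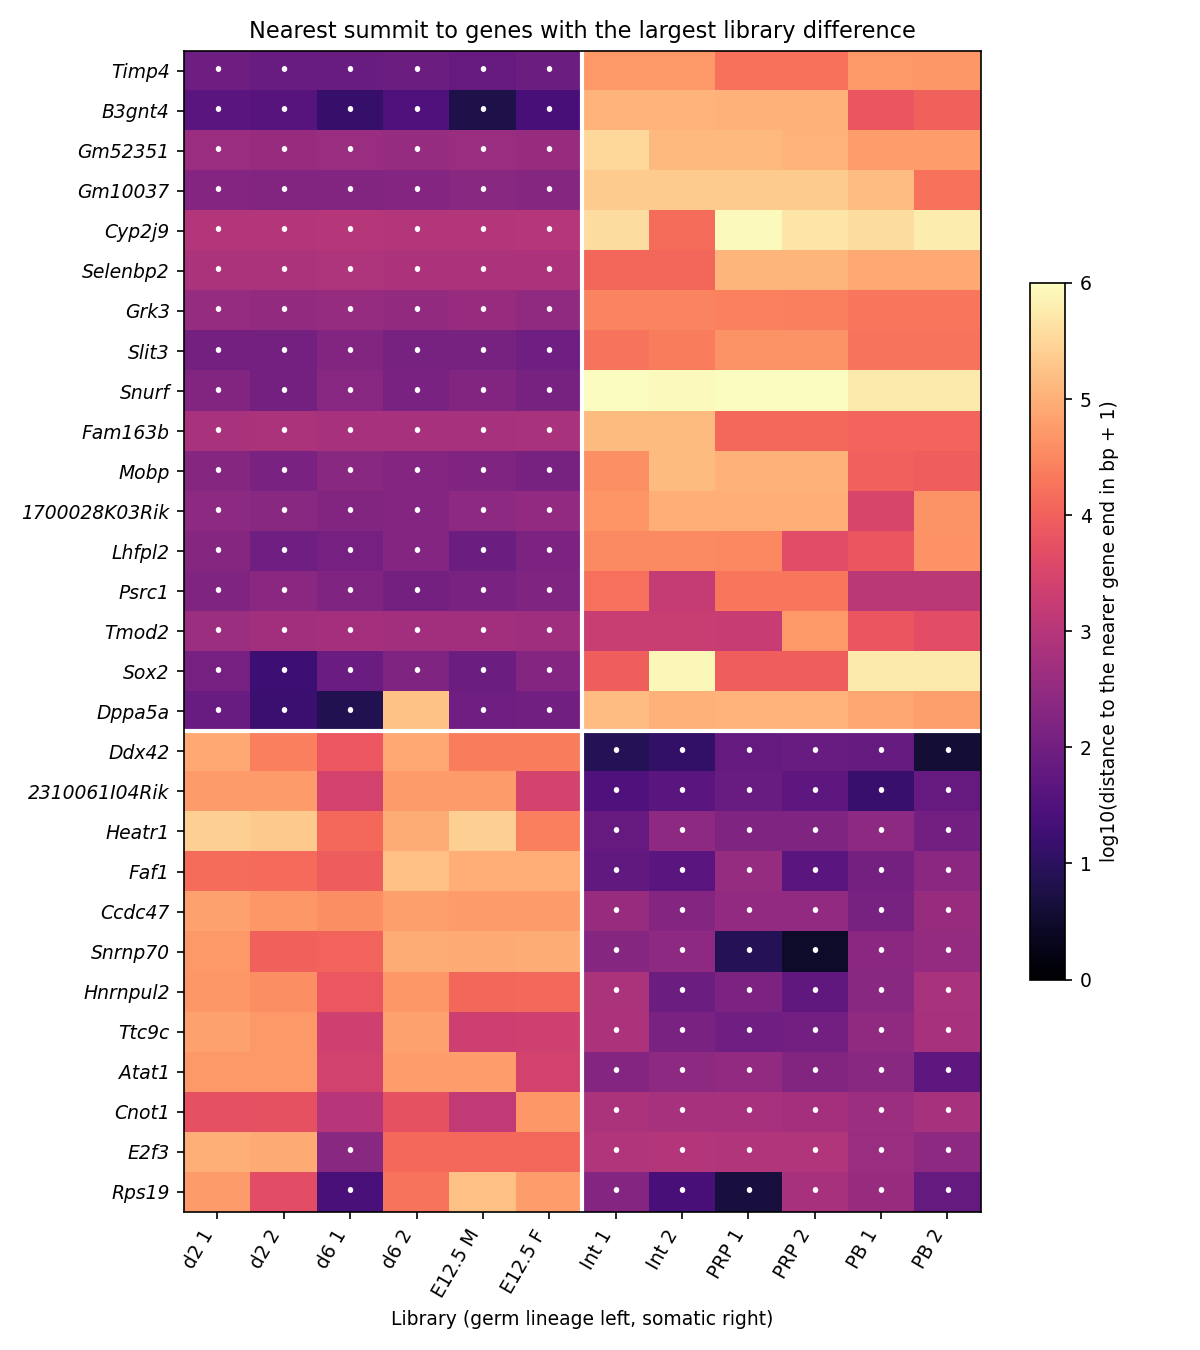
Rows are genes with the largest difference between lineages within 1 kb, germ-lineage genes above the white line and somatic genes below; columns are libraries, germ lineage left (d2 and d6 PGCLC, E12.5 PGC male M and female F) and somatic right (Int, intestinal epithelium; PRP, photoreceptor precursors; PB, plasmablasts). Colour gives log10 of the distance in bp from the nearer gene end to the nearest summit, and a white dot marks a summit within 1 kb; E2f3 and Rps19 carry a dot in 1 germ-lineage library, d6 PGCLC replicate 1.

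In the distal window the germ-only genes ranked highest included genes of transporters and a receptor. Slc7a2, a cationic amino acid transporter gene, had 3 germ-only regions in the window, on chromosome 8 at 40914748 to 40914804, 40939046 to 40939413 and 40940516 to 40940601. Each germ-lineage library listed 3 to 9 summits in its window and each somatic library 0. Ackr1, an atypical chemokine receptor gene, Plcb4, a phospholipase C gene, Slc16a14, of the monocarboxylate transporter family, and Acad11, an acyl-CoA dehydrogenase gene, had 2 such regions each. Acad11 differed between the windows: summits within 1 kb came from 1 germ-lineage and 5 somatic libraries, while the germ-only regions lay inside the gene, 22115 and 24683 bp from its ends. Of the 186 genes, 140 held a germ-only region in the window, 130 distinct regions in all since neighbours share them, and 4 were also germ-only within 1 kb. In the reverse direction 1 of the 7 genes, Cdkn2c, held a somatic-only region. Cdkn2c encodes an inhibitor of cyclin-dependent kinases; the region, 9528 bp from it, is the one at the start of Faf1.

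Genes of the pluripotent state recurred among those with distal germ-only summits. The naive pluripotency list, transcription factors and markers of embryonic stem cells, had 19 genes. Among them 12 had more germ-lineage and 1 more somatic libraries at 5 to 50 kb, with a median difference of 3.0 libraries, against a median of 0.0 and shares of 38.7% and 24.8% over all genes. Present in all 6 germ-lineage libraries and no somatic library were Zfp42 (REX1), Tbx3 and Dppa4, and Esrrb in 6 and 1. Zfp42 had its region 23440 bp from the gene on chromosome 8 (43330449 to 43330553), and the nearest somatic summit lay 916324 to 916428 bp away in all 6 libraries. Dppa4 had its region 29840 bp away on chromosome 16 (48253790 to 48253895), and no somatic summit closer than 78100 bp. Tbx3 differed in position and not in presence alone. Germ-lineage libraries listed 1 to 8 summits 5 to 50 kb from it and 1 library had one within 1 kb, whereas 4 somatic libraries, those of intestinal epithelium and photoreceptor precursors, had a summit 90 to 152 bp from its end and none at 5 to 50 kb. Klf4 had a germ-only region 7372 bp away. Myc, a growth regulator gene, was not different within 1 kb: 6 and 6 libraries had a summit there, at 197 to 249 bp in germ-lineage and 210 to 271 bp in somatic libraries.

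Counted over germ-only regions, 9.37% of all genes had one within 50 kb of an end. In the naive pluripotency list 9 of 19 genes (47.4%) had one, and in the primed epiblast list, genes of the postimplantation epiblast, 7 of 16 (43.8%), among them Otx2, Nodal, Lefty2, Pou3f1 and Dnmt3b. The WNT pathway list had 10 of 32 (31.3%), the Notch pathway list 6 of 22 (27.3%), with Notch1, Jag1, Dll1 and Hes1, and the BMP and TGF-beta list 7 of 31 (22.6%), with the antagonist gene Nog. In the B and plasma cell list 5 of 25 genes (20.0%) had one, in the germ cell list 4 of 24 (16.7%) and in the retina list 1 of 26 (3.85%). Lists of other kinds were also above the share of all genes: ribosomal protein 18.8%, mesoderm 18.5%, DNA and H3K9 methylation 16.7%, Hox 15.8% and intestine 14.8%. Cell cycle genes had 9.38%, interferon response genes 7.14% and antigen processing genes 5.88%. In the Nog window the region lay 24266 bp away, in all 6 germ-lineage and no somatic libraries. Jag1, a Notch ligand gene, had its region inside the gene, 17002 bp from an end. Sfrp1, a WNT antagonist gene, had one 6909 bp away and no somatic summit closer than 154226 bp.

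Genes of PGC specification themselves had distal summits in both lineages, most of those named here in more germ-lineage than somatic libraries. Prdm1, the gene of BLIMP1, had a summit within 1 kb in 1 germ-lineage and 5 somatic libraries and at 5 to 50 kb in all 12. The count within 1 kb depends on the border: a region found in all 12 libraries lay 1011 bp from its end, and nearest summits were 20 to 1025 bp away in germ-lineage and 136 to 1047 bp in somatic libraries. Prdm1 also held 2 germ-only regions inside the gene, 8091 and 39383 bp from its ends. Prdm14, a partner regulator of PGC fate, had a distal summit in 6 germ-lineage and 2 somatic libraries, Tfap2c in 5 and 2, and Nanos3 in 6 and 3. Within 1 kb the 3 genes had summits in 2, 3 and 2 germ-lineage libraries and no somatic library. Dppa3 had distal summits in 6 and 6 libraries and Kit, the receptor gene used to sort d2 PGCLC, in 5 germ-lineage and 1 somatic library. None of these genes passed the test across all genes, which could not call a single gene here. Over the germ cell list, 10 of 24 genes had more germ-lineage and 5 more somatic libraries within 1 kb, beside 13.5% and 38.0% of all genes. The numbers were 14 and 3 at 5 to 50 kb, beside 38.7% and 24.8% of all genes. The lead within 1 kb leaned on d6 PGCLC replicate 1, with a summit near 50.0% of the list, against 0.0% in d6 PGCLC replicate 2. Without replicate 1, by the share of libraries, the list split 6 to 6 within 1 kb, beside 9.59% and 43.4% of all genes. At 5 to 50 kb it split 13 to 6, beside 37.2% and 33.4%.

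Within 1 kb the lists separated by kind of gene. The mesoderm list, regulators of the germ layer that forms beside the PGC precursors, had 19 of 27 genes with more germ-lineage and 4 with more somatic libraries, among them T (brachyury) in 2 and 0 and Rspo3 in 6 and 2. The naive pluripotency list had 12 and 2 of 19. Over all genes the shares were 13.5% and 38.0%. By cell type, the mesoderm lead was seen in PGCLC, whose mean share of list genes with a summit was 33.3% at d2 and 53.7% at d6. For E12.5 PGC it was 14.8%, inside the somatic span: intestinal epithelium 9.26%, plasmablasts 18.5% and photoreceptor precursors 20.4%. The same 4 cell types had 9.60%, 13.2%, 44.1% and 13.4% of all genes. Ribosomal protein genes stood at the other end, with 2 of 48 ahead in germ-lineage and 41 in somatic libraries; Rps19 had a summit within 1 kb in 1 germ-lineage and 6 somatic libraries. The same 48 genes at 5 to 50 kb went the other way, with 27 ahead in germ-lineage and 7 in somatic libraries. Cell cycle genes had 3 and 23 of 32 within 1 kb, with E2f3 in 1 and 6 libraries, B and plasma cell genes 1 and 17 of 25, and genes of DNA and H3K9 methylation 2 and 16 of 24. No list was given a test.

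Much of the somatic lead near genes came from plasmablasts. The mean share of B and plasma cell genes with a summit within 1 kb is given beside that of all genes. In the germ lineage, d2 PGCLC had 8.00% (all genes 13.3%), d6 PGCLC 16.0% (all genes 23.2%) and E12.5 PGC 4.00% (all genes 9.60%). Intestinal epithelium and photoreceptor precursors had 10.0% each (all genes 13.2% and 13.4%), and plasmablasts 68.0% (all genes 44.1%). For ribosomal protein genes the shares were 17.7%, 30.2% and 18.8% in the 3 germ-lineage cell types, in the same order, against 24.0%, 38.5% and 92.7% in the somatic ones. Without plasmablasts, an omission chosen for the lists after seeing the data, 25.5% of all genes were ahead in the germ lineage and 17.5% in somatic libraries. Against that background, 8 ribosomal protein genes were ahead in the germ lineage and 23 in somatic libraries, cell cycle genes split 11 to 12, and B and plasma cell genes 5 to 5. Genes of DNA and H3K9 methylation split 7 to 9. Naive pluripotency genes split 13 to 1 and mesoderm genes 20 to 5 without plasmablasts. The mesoderm split was 13 to 7 without d6 PGCLC replicate 1. Retina genes were nearly even within 1 kb over the lineages, at 7 and 8 of 26, but within the somatic group they had a summit in 48.1% for photoreceptor precursors, against 7.69% for intestinal epithelium and 13.5% for plasmablasts.

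**Figure D5:**
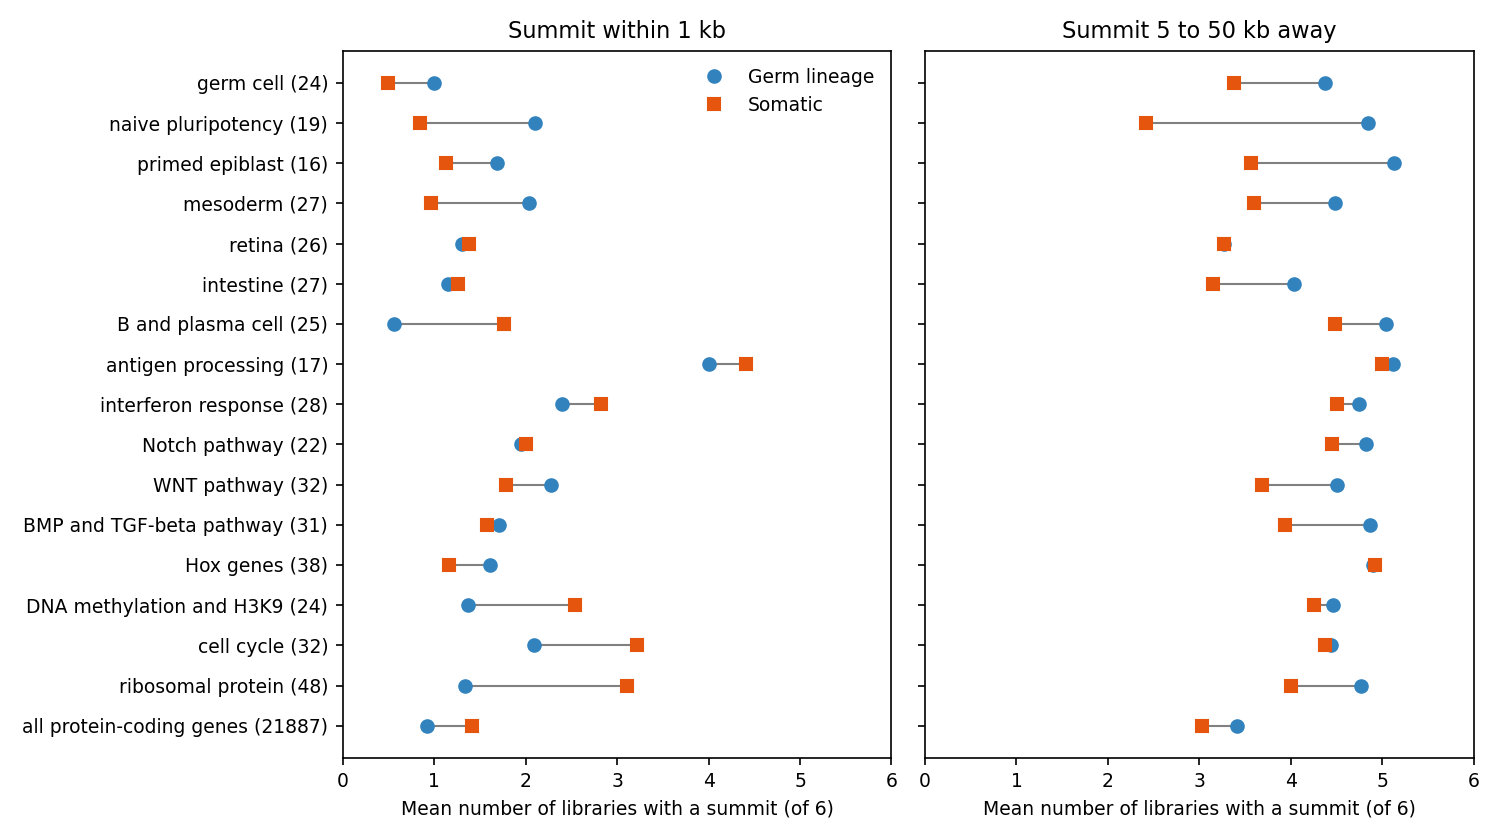
For each gene list (number of genes in parentheses) the circle gives the mean number of germ-lineage libraries and the square the mean number of somatic libraries, of 6, with a summit within 1 kb (left) and 5 to 50 kb away (right). Ribosomal protein genes average 1.33 germ-lineage and 3.10 somatic libraries within 1 kb and 4.77 and 4.00 at 5 to 50 kb, and naive pluripotency genes 4.84 and 2.42 at 5 to 50 kb.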

How the data were processed

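The labels' protocols describe ChIP-seq with an antibody to GFP. The submitters' processing notes name mm10 as the build and list MACS2 2.1, Bowtie 1.1.2, cutadapt 1.7.1 and Trim Galore 0.3.7. The deposited lists give a chromosome and a position for each summit, 1 list per library, with no score. Not given in the sources used here were the control, the calling threshold and the read depth. It is also unknown if the first base is counted as 0 or 1, which could shift positions by 1 bp. The input library of male E12.5 PGC was not analysed here.

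Groups came from the labels. Chromosomes 1 to 19, X and Y were used. Gene ends came from a table of GRCm38.p6, the assembly of mm10, restricted to protein-coding genes. Start sites and promoter windows came from RefSeq for 17492 of them, none on chromosome 18, so start-site and promoter measures leave that chromosome out. The share of the genome at each distance was taken over the span of each chromosome between the first and last gene end or summit. Summits of all libraries at most 200 bp apart were merged by single linkage, and a region's distance in a distance class was measured from its midpoint, while the distance printed for a single region is that of its nearer edge. A gene could hold a summit in both windows. Shares were compared over 6 cell types by two-sided exact permutation tests with Benjamini-Hochberg adjustment over 9 measures, of which the share at 1 to 5 kb, the start to far end ratio, the CpG measure and AGNGAAAG were added after seeing the data. Presence per gene was tested over 12 libraries. The code of both tests was checked on simulated or made-up values, which does not show that the gene test can pass its adjusted threshold. Python 3.11.15, numpy 2.4.6, scipy 1.17.1, pandas 2.3.3 and matplotlib 3.10.9 were used.

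The members, gene lists and rules were chosen with earlier results of these data known. Named genes were, within 1 kb, up to 15 genes with the largest difference in germ-lineage libraries minus somatic libraries, ties ordered by how closely their summits agreed in position, and up to 10 in the other direction. At 5 to 50 kb ties were ordered by the number of regions of one lineage. List members with a difference of 5 or more and 16 fixed genes were added. Not all of them are printed, 1 of them because it is not reported here, and somatic-only region neighbours, germ-only list members and the list examples T and Rspo3 were named after their values were seen. Alternatives were the unit of the test, a replicate block, gene annotation, window widths, merging distance, list length and omission of libraries or cell types.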

Additional observations from a re-analysis of the deposited data

Results flagged for a closer look

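The d6 PGCLC replicate 1 library lay far from the other 5 germ-lineage libraries in 2 of 13 measures examined in each lineage. It listed 76185 summits, and the next germ-lineage library 26657; the gap was 0.775 of the whole range, above Dixon's 95% critical value for 6 libraries. It had a summit within 1 kb of 7866 genes, and the next library of 3739 genes, a gap of 0.672 of the range. Chance flags about 1 in 20 groups of values examined in this way. Its distance shares were not beyond that value. Every number of somatic-only genes or regions rests on the absence of a summit from this library too, and the report gives those numbers without it.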

How the results depend on the processing

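The 5 planned distance differences kept their direction under every alternative run. With libraries as units they were -12.5, 7.17, 4.74 percentage points (within 1 kb, 5 to 50 kb, inside genes) and 0.332 (log10 median distance), each with an exact permutation p of 0.00216, and 7.56 points beyond 50 kb with a p of 0.0346; paired libraries are not independent, so these p-values are too small. With a replicate block, which leaves out E12.5 PGC because its labels carry no replicate number, the exact permutation test gave -12.3 (p = 0.01), 7.56 (p = 0.01), 4.82 (p = 0.02) and 0.30 (p = 0.03), and 5.96 points beyond 50 kb (p = 0.16). The replicate numbers are only labels and pair nothing in the design. The block test also permuted single libraries, so its p-values are too small as well. With cell types as units and E12.5 PGC left out, the exact permutation p was 0.1 within 1 kb and at 5 to 50 kb. It was 0.2 inside genes and for the median distance, and 0.4 beyond 50 kb. Leaving out each library in turn gave -13.3 to -11.8 within 1 kb, 6.80 to 7.55 at 5 to 50 kb, 7.17 to 7.96 beyond 50 kb, 4.42 to 5.05 inside genes and 0.31 to 0.36 for the median. The numbers of completely separated features depended on the settings. With genes of all kinds there were 107 germ-only genes within 1 kb, and 564 germ-only and 13 somatic-only genes at 5 to 50 kb. A 500 bp window gave 26 germ-only genes. Lists thinned to 7998 summits gave 1 germ-only gene within 1 kb, 63 germ-only and 23 somatic-only genes at 5 to 50 kb, and 6 germ-only and 3 somatic-only regions. Without plasmablasts there were 96 germ-only genes within 1 kb, 689 and 12 at 5 to 50 kb, and 28 somatic-only regions. Leaving out each library in turn gave 43 to 59 germ-only and 10 to 48 somatic-only genes within 1 kb, 186 to 263 and 7 to 46 at 5 to 50 kb, and 1644 to 2481 and 15 to 55 regions. Within 1 kb, at 5 to 50 kb and among regions, somatic-only numbers were 40, 46 and 45 without d6 PGCLC replicate 1 and 48, 17 and 55 without intestinal replicate 1. Within 1 kb and among regions they were 18 and 23 without intestinal replicate 2 and 22 and 28 without photoreceptor replicate 1. Without the male E12.5 PGC library 2481 regions were germ-only. No gene passed the adjusted test under any of these settings, but with 12 libraries or fewer it can hardly call a single gene. The cause of these shifts was not tested, but fewer libraries set a weaker condition. Without read depth, the absence of a summit cannot be told apart from shallow sequencing.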

Other observations

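A list of 30 imprinted genes was compiled after seeing Snurf and Peg12 among the named genes, so it is a description only. Of the 29 that matched, 12 had more germ-lineage and 3 more somatic libraries with a summit within 1 kb, beside 13.5% and 38.0% of all genes. From 5 to 50 kb the numbers were 21 and 3, beside 38.7% and 24.8%. Within 1 kb, Snurf and Mkrn3 had 6 germ-lineage and 0 somatic libraries. Mest, a paternally expressed gene, had 6 and 2. In the window from 5 to 50 kb, Snrpn, Magel2, Mkrn3 and Peg12 had 6 and 0, and Peg10 had 5 and 0. Neighbouring imprinted genes share regions, so these numbers do not count independent sites. The germ-only region near Mkrn3 also lay 41077 bp from Peg12, and the one inside Snurf also lies inside Snrpn.

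Snurf, Snrpn, Mkrn3, Magel2, Ndn and Peg12 lie in one imprinted domain on chromosome 7, between 59932495 and 62514510 with flanks. The germ-lineage libraries listed 5, 11, 23, 5, 8 and 8 summits there (d2 PGCLC replicates 1 and 2, d6 PGCLC replicates 1 and 2, E12.5 PGC male and female). The somatic libraries listed 0 and 1 (intestinal epithelium), 0 and 0 (photoreceptor precursors) and 3 and 5 (plasmablasts). The d6 PGCLC replicate 2 list, with 15411 summits in all, had 5 in the domain, as many as the plasmablast replicate 2 list, with 45122. The domain held 3 germ-only regions, at 60004990 to 60005085 inside Snurf, 62420662 to 62420794 near Mkrn3 and 62452397 to 62452555 near Peg12.

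The genes nearest to the most germ-only regions were Spock1 with 4, and Sox2, Sox9, Klf4, Irx3, Sall1, Epha4 and Spry2 with 3 each, among 34 genes with 3. Sox9, a transcription factor gene of gonad, gut and cartilage, had distal summits in 6 germ-lineage libraries and 1 somatic library.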
